A study of Homo sapiens with 12 samples.

Results

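The 37 lysosome genes described here are a fixed list of lysosomal membrane proteins, hydrolases, proton pump subunits, 2 transcription factors of the lysosome and 1 autophagy receptor. They were read from a table of 24331 features as the rows whose gene column holds the symbol, and all 37 were found. Expression had been measured by RNA-sequencing in MDA-MB-231 cells, a human triple-negative breast cancer line of mesenchymal character. The cells were either wild type (WT) or carried a CRISPR/Cas9 deletion in the core-regulatory element (CRE) of the promoter of ETS1, a transcription factor gene. The deleted cells are labelled KO and are called ΔCRE here. Both kinds of cells were sampled at 0, 6 and 24 h of treatment with PMA, a phorbol ester that activates protein kinase C, together with Ionomycin, a calcium ionophore. The series holds 12 libraries, 2 per genotype and time point. The number of clones behind the ΔCRE libraries is not given in the sources used here, so the deletion and a difference between clones cannot be told apart.

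The lysosome is the acidic compartment in which cells break down proteins, glycans and lipids that arrive by endocytosis or autophagy. Cathepsins and glycosidases work inside it, the V-type proton ATPase keeps it acidic, and membrane proteins such as NPC1 and MCOLN1 let cholesterol and ions out. Many of these genes carry the CLEAR element, an extended E-box bound by TFEB and TFE3, which enter the nucleus when the kinase mTORC1 is off or when calcium leaves the lysosome. In tumour cells, secreted cathepsins are known for cutting the extracellular matrix.

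The library labelled ΔCRE 0 h replicate 1 stood apart and entered no test. Its correlation with the other ΔCRE 0 h library was 0.867 over 11256 features on the log2(FPKM + 1) scale, while the other pairs of replicates reached 0.978 to 0.984. Of 6 genes that mark gut epithelium, all 6 stayed under 1 FPKM in the other 11 libraries (summed level at most 0.371 FPKM) but summed to 8842 FPKM in this library. Its macrophage and leukocyte genes summed to 236 FPKM against 0.752 to 2.59 FPKM, with TYROBP at 154 FPKM against 0 in all 11 others. The 11 other libraries carried VIM at 1543 to 2539 FPKM, CD44, AXL and CAV1, and had ESR1, PGR and CDH1 at or near 0. The other 3 of 6 luminal and epithelial genes were present, with KRT19 at 32.5 to 106.5 FPKM, EPCAM at 2.02 to 3.38 FPKM and GATA3 at 1.76 to 3.32 FPKM. The sum of these 6 genes moved with time, from 65.5 to 71.5 FPKM in WT libraries of 0 h to 50.7 to 54.9 FPKM after 6 h and 103.4 to 111.5 FPKM after 24 h, and in ΔCRE cells from 36.7 to 38.1 FPKM at 6 h to 75.0 to 87.1 FPKM at 24 h. Its part in the results below was not tested. ETS1, the targeted gene, lay at 139 and 145 FPKM in WT and at 62.8 and 62.2 FPKM in ΔCRE cells at 6 h. The WT libraries of 24 h had 36.2 and 39.7 FPKM and the ΔCRE libraries of 24 h had 29.3 and 30.7 FPKM. At 0 h the remaining ΔCRE library had 16.5 FPKM against 24.0 and 23.7 FPKM in WT.

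The lysosome genes were mostly well expressed. FPKM, the number of fragments per kilobase of transcript scaled to the size of the library, allows levels to be compared between genes. Over the 11 libraries the median of the 37 mean levels was 23.8 FPKM, against 11.7 FPKM for the 11256 features with a mean of at least 1 FPKM. CD63, a tetraspanin of late endosomes, had the highest mean (556 FPKM), followed by the autophagy receptor SQSTM1 (408 FPKM), the saposin precursor PSAP (295 FPKM) and the aspartic protease CTSD (248 FPKM). In all, 7 members had a mean of at least 100 FPKM, 23 lay from 10 to under 100, 5 lay from 1 to under 10, and CTSS and CTSF stayed under 1 FPKM (0.452 and 0.123). The 35 members above that level were tested.

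Promoter sequences were also looked up, since the CLEAR element is the feature that ties these genes to TFEB and TFE3. RefSeq windows (GRCh38.p14) running from 250 bases before to 50 bases after an annotated start were matched for 25 of the 37 members. The core GTCACGTG, searched on both strands, stood in 6 of the 25 (24.0%), and in 2.93% of 27305 genes with a window and 5.39% of the 8494 of these whose feature was tested. The shorter E-box CACGTG, which the core contains, stood in 8 of 25 members (32.0%), and in 8.77% of all genes and 12.7% of those tested. The stretches around the core are shown for the 6 members that hold it, on the strand of the gene with each copy of the core in capitals.
MCOLN1, a calcium channel of the lysosomal membrane, chr19:7522561-7522630, plus strand: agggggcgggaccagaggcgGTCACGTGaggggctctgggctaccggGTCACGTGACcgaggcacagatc
CTSA, a carboxypeptidase that also protects other lysosomal enzymes, chr20:45891271-45891337, plus strand: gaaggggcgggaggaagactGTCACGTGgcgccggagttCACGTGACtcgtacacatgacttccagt
ATP6V0D1, a subunit of the membrane sector of the proton pump, chr16:67481191-67481238, minus strand: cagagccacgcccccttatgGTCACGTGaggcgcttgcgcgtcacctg
GAA, the acid alpha-glucosidase that degrades glycogen, chr17:80101483-80101577, plus strand: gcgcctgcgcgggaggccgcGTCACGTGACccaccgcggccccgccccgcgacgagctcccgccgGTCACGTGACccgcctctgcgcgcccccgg
CTSD, chr11:1763947-1763994, minus strand: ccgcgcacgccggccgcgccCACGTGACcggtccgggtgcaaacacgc
LAMP1, an abundant glycoprotein of the lysosomal membrane, chr13:113297025-113297245, plus strand: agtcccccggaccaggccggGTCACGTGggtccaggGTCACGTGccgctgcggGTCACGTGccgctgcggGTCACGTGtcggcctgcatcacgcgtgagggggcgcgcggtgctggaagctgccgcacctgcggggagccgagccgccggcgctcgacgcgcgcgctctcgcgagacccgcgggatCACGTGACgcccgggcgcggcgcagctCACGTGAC

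The LAMP1 window held 6 separate copies of the core, while the others held 1 or 2. The AP-1 pattern TGANTCA stood in 3 of the 25 members (12%), and in 9.37% of all genes and 6.84% of those tested. It covers both the AP-1 site TGACTCA, bound by the FOS and JUN factors that PMA is known to induce, and TGATTCA. TFE3 and CD63 held TGACTCA, while PPT1 held TGATTCA. The share of genes with TGACTCA alone was not taken. These 3 members are shown for comparison, with the motif in capitals.
TFE3, chrX:49043373-49043419, minus strand: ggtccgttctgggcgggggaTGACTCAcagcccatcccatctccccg
CD63, chr12:55729112-55729158, minus strand: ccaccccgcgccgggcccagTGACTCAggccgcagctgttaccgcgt
PPT1, a thioesterase that removes palmitate from proteins, chr1:40097438-40097484, minus strand: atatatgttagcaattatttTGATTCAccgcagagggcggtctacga

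The ETS motif CCGGAAGT was in 0 of the 25 member windows, and in 4.95% of all genes and 10.8% of those tested. Shorter and variant ETS sequences were not searched. A match is a description of these letters and not evidence of binding.

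The summed level of the members was highest at 24 h. Their summed FPKM was 0.349% and 0.345% of the sum over all features in the WT 0 h libraries, 0.417% and 0.409% at 6 h and 0.499% and 0.493% at 24 h. In ΔCRE cells it was 0.365% in the remaining 0 h library, 0.424% and 0.429% at 6 h and 0.508% and 0.505% at 24 h. SQSTM1 carried most of the difference between 0 and 6 h. Without it, the WT libraries of 0 h had 0.325% and 0.320%, those of 6 h had 0.330% and 0.328%, and those of 24 h had 0.430% and 0.427%. In ΔCRE cells without SQSTM1 it was 0.335% at 0 h, 0.326% and 0.328% at 6 h, and 0.431% in both libraries of 24 h. The share of the other members in these cells was thus no higher at 6 h than in the remaining 0 h library. Their summed FPKM went from 1935 in that library to 2123 and 2048 at 6 h, and single members such as NPC1 and CD63 were higher at 6 h.

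**Figure D1:**
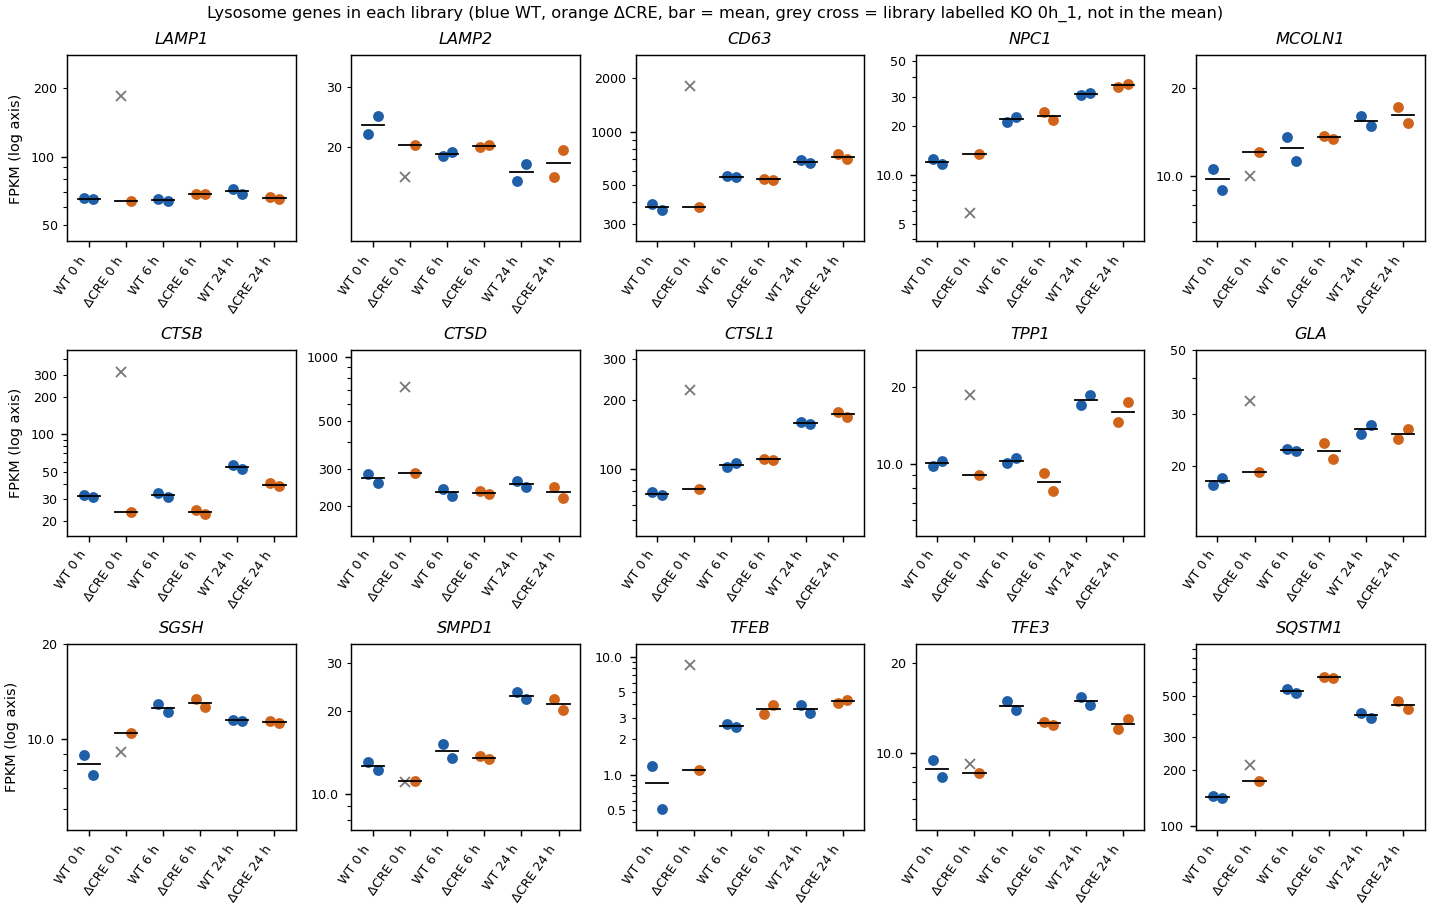
FPKM of 15 lysosome genes in each library on log axes, with WT libraries in blue, ΔCRE libraries in orange, the mean of each group as a bar and ΔCRE 0 h replicate 1 as a grey cross outside the means. NPC1, CD63 and CTSL1 climb from 0 to 6 to 24 h in both genotypes, SQSTM1 peaks at 6 h, LAMP1 stays between 63.8 and 72.3 FPKM in the 11 libraries, and CTSB has its ΔCRE points under its WT points at each time.

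The first comparison set WT cells at 6 h of PMA/Ionomycin against WT cells at 0 h. The series holds no untreated library of 6 or 24 h, so the treatment and the time in culture cannot be told apart. At 6 h, SQSTM1, the factors TFEB and TFE3, NPC1, CD63, SGSH, CTSL1, GLA and MCOLN1 had risen, while LAMP2, ASAH1, ATP6V1A and ATP6V1H had fallen. Thus 9 of the 35 tested members (25.7%) were higher and 4 (11.4%) were lower at an adjusted p under 0.05 (limma), where 23.3% of all tested features were higher and 21.1% were lower. The median log2 fold change was 0.02 over the members and -0.001 over all features. Rescaling every library to TPM moved the median of all features to -0.12, and the split of the members then became 7 higher and 9 lower. In these bulk libraries, a change in the share of cells that express a gene and a change in its RNA per cell cannot be told apart.

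SQSTM1, the receptor known as p62 that carries ubiquitinated cargo to autophagosomes, had the largest change of the members. It lay at 145 and 142 FPKM in WT cells at 0 h, 549 and 519 FPKM at 6 h and 408 and 382 FPKM at 24 h. All 4 treated libraries stood above both untreated ones, and the 6 h libraries above the 24 h libraries. By limma, the log2 fold change was 1.89 ± 0.06 (SE) at 6 h with an adjusted p of 1.28e-07, and 1.46 ± 0.06 at 24 h with an adjusted p of 7.6e-07. Its feature, chromosome 5 from 179224598 to 179285840 in hg19, runs 8800 bases before and 20762 bases past the gene and overlaps MGAT4B and MRNIP on the other strand, and the use of strand in counting is not stated.

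TFEB, the main activator of CLEAR genes, was scarce before treatment. It lay at 1.19 and 0.512 FPKM in WT cells at 0 h, 2.68 and 2.53 FPKM at 6 h and 3.89 and 3.36 FPKM at 24 h. With ΔCRE 0 h replicate 1 left out, this pair at 0 h differed more than any other pair of replicates for a tested member (0.53 on the log2 scale). All 4 treated libraries still stood above it. TFEB rose by 0.99 ± 0.16 at 6 h (adjusted p = 0.0015) and had gained 1.35 ± 0.16 by 24 h (adjusted p = 0.000202) on the log2(FPKM + 1) scale, which understates the change of a low gene. TFE3, its relative with the AP-1 motif shown above, lay at 9.43 and 8.28 FPKM at 0 h, 14.9 and 13.9 FPKM at 6 h and 15.4 and 14.4 FPKM at 24 h. It rose by 0.64 ± 0.08 at 6 h (adjusted p = 0.00027) and stood 0.69 ± 0.08 above 0 h at 24 h (adjusted p = 0.000135), while the step from 6 to 24 h was 0.05 ± 0.08 (adjusted p = 0.636).

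Of the 5 membrane members, 3 rose at both times, 1 fell and LAMP1 did not pass the test. NPC1, which exports cholesterol from the lysosome, lay at 12.4 and 11.6 FPKM at 0 h, 21.2 and 22.7 FPKM at 6 h and 31.1 and 32.0 FPKM at 24 h in WT cells. CD63 went from 392 and 360 FPKM to 559 and 553 FPKM and then to 691 and 665 FPKM. MCOLN1, whose promoter holds 2 copies of the core, went from 10.5 and 8.99 FPKM to 13.6 and 11.3 FPKM and then to 16.0 and 14.8 FPKM. For all 3 genes the groups followed each other in time without overlap. The feature of NPC1 overlaps RMC1 on the other strand, and that of MCOLN1 overlaps PNPLA6 on the same strand. The log2 fold changes at 24 h against 0 h were 1.33 ± 0.07 for NPC1 (adjusted p = 2.52e-06), 0.85 ± 0.06 for CD63 (adjusted p = 9.97e-06) and 0.61 ± 0.11 for MCOLN1 (adjusted p = 0.00146). At 6 h they were 0.82, 0.57 and 0.32, and the call of MCOLN1 at 6 h (adjusted p = 0.0375) was lost after rescaling to TPM and after quantile normalization.

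The pair of LAMP proteins behaved differently. LAMP1, with 6 copies of the core, lay at 65.6 and 65.0 FPKM at 0 h, 65.5 and 63.8 FPKM at 6 h and 72.3 and 68.8 FPKM at 24 h in WT cells. Its log2 fold change was -0.01 ± 0.05 at 6 h (adjusted p = 0.823) and 0.11 ± 0.05 at 24 h (adjusted p = 0.0806), and the value at 24 h passed the threshold after quantile normalization, without a filter and with a replicate block and in no other alternative. LAMP2, the membrane protein needed for fusion with autophagosomes, went from 21.9 and 24.7 FPKM to 18.9 and 19.3 FPKM and then to 16.0 and 17.9 FPKM. LAMP2 fell by 0.27 ± 0.10 at 6 h (adjusted p = 0.0469) and by 0.44 ± 0.10 at 24 h (adjusted p = 0.00491) on the log2 scale.

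By 24 h the rise had spread to most classes of lysosome genes in WT cells. At 24 h against 0 h, 21 of the 35 tested members (60.0%) were higher and 3 (8.57%) were lower (limma), where 26.5% of all tested features were higher and 28.2% were lower. The median log2 fold change was 0.29 over the members and -0.02 over all features. These 21 and 3 members were also the ones called after rescaling to TPM, and quantile normalization added LAMP1 to them. All 9 members that had risen at 6 h were among the 21, joined by 12 others, and LAMP2, ASAH1 and ATP6V1A were the 3 that were lower at both times. With ΔCRE 0 h replicate 1 in the model, 3 members passed at 6 h (SGSH, SQSTM1 and TFE3) and 6 passed at 24 h (MCOLN1, NPC1, SGSH, SMPD1, SQSTM1 and TFE3), all higher.

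**Figure D2:**
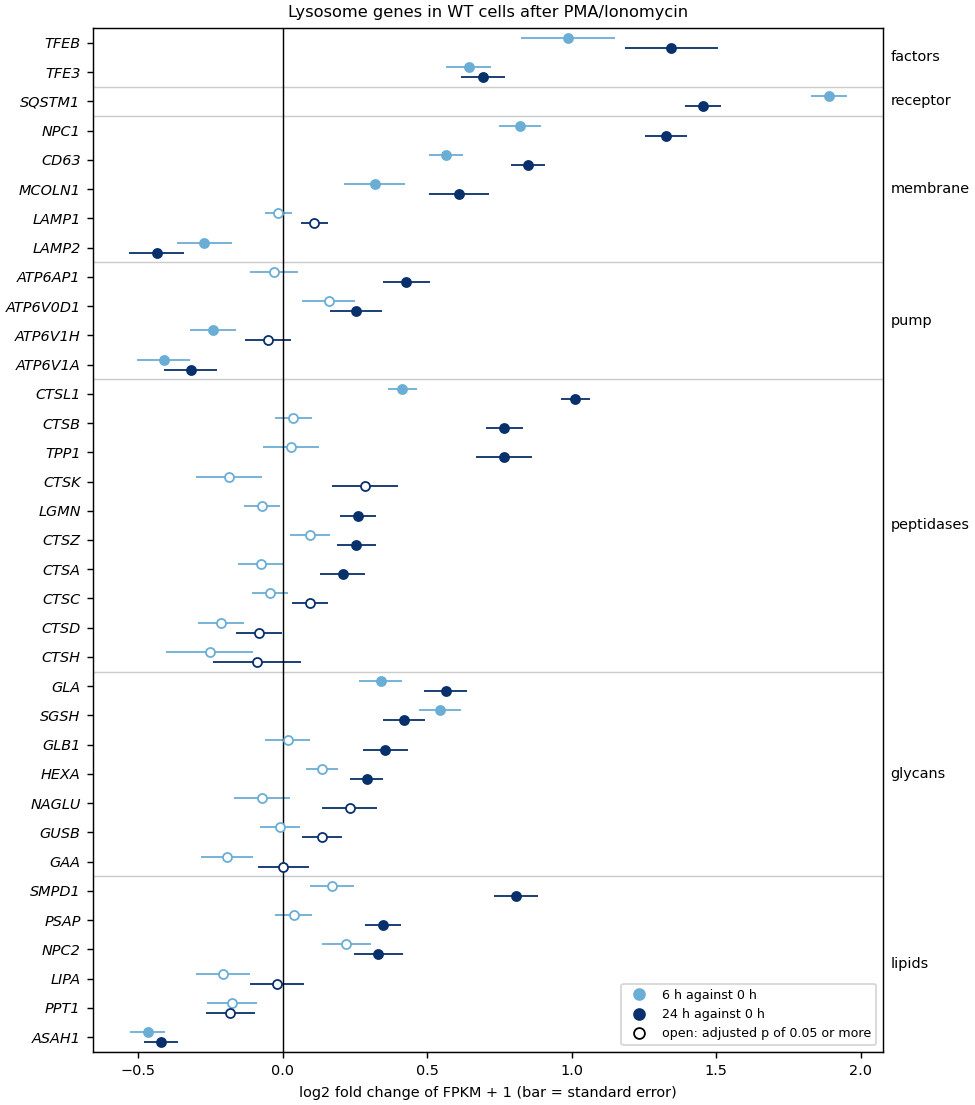
Log2 fold change (horizontal axis) of FPKM + 1 in WT cells at 6 h (light) and 24 h (dark) against 0 h for the 35 tested members in 7 role classes, with the standard error as a bar and filled points for an adjusted p under 0.05. At 6 h there are 13 filled points on both sides of 0, and at 24 h there are 24, of which 21 lie to the right.

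Among the peptidases, 6 of the 10 tested members rose by 24 h and none fell, while CTSL1 alone had risen at 6 h. CTSL1, the older symbol of the cysteine protease cathepsin L, lay at 79.3 and 77.0 FPKM in WT cells at 0 h, 103 and 106 FPKM at 6 h and 160 and 158 FPKM at 24 h. It thus rose at both steps, by 0.41 ± 0.05 within 6 h (adjusted p = 0.000275) and by a further 0.60 ± 0.05 to 24 h (adjusted p = 4.83e-05). CTSB, the cysteine protease cathepsin B, lay at 32.3 and 31.0 FPKM at 0 h and 33.6 and 31.4 FPKM at 6 h, and reached 56.6 and 52.6 FPKM at 24 h. TPP1, which removes tripeptides from the ends of proteins, followed the same course, from 9.82 and 10.3 FPKM to 10.04 and 10.5 FPKM and then to 16.98 and 18.6 FPKM. For both genes the libraries of 0 and 6 h overlapped and those of 24 h stood above all 4. Between 6 and 24 h, CTSB rose by 0.73 ± 0.06 (adjusted p = 6.39e-05) and TPP1 by 0.74 ± 0.10 (adjusted p = 0.000489). LGMN, the asparaginyl endopeptidase, CTSZ and CTSA rose by 0.21 to 0.26 at 24 h against 0 h, and CTSA was near the threshold (adjusted p = 0.0485).

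CTSD did not follow the other proteases. It lay at 284 and 256 FPKM at 0 h, 242 and 224 FPKM at 6 h and 264 and 247 FPKM at 24 h in WT cells. The 6 h libraries were the lowest but did not pass the test (-0.21 ± 0.08, adjusted p = 0.0577), and the value at 24 h was -0.08 ± 0.08 (adjusted p = 0.415). Rescaling to TPM and quantile normalization both placed it among the lower genes at 6 h. Its feature extends 283297 bases past the gene in hg19 and spans 10 other protein-coding genes, so the value may hold fragments of these. CTSC, CTSH and CTSK did not pass against 0 h at either time.

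The glycan-degrading enzymes numbered 4 higher, 0 lower and 3 not called at 24 h. GLA, alpha-galactosidase A, lay at 17.2 and 18.1 FPKM at 0 h, 22.7 and 22.5 FPKM at 6 h and 25.7 and 27.6 FPKM at 24 h in WT cells. SGSH, a sulfatase of heparan sulfate, lay at 8.93 and 7.72 FPKM, then 12.9 and 12.2 FPKM, then 11.5 and 11.4 FPKM, with the highest level at 6 h. GLA rose by 0.56 ± 0.07 (adjusted p = 0.000338) and SGSH by 0.42 ± 0.07 (adjusted p = 0.0015) at 24 h against 0 h. The feature of SGSH extends 36724 bases past the gene and overlaps CARD14 and SLC26A11. That of GLA overlaps RPL36A and HNRNPH2, and all 4 genes lie on the opposite strand. HEXA and GLB1, subunits of hexosaminidase A and beta-galactosidase, rose by 0.29 and 0.36, while GAA, GUSB and NAGLU gave values of 0.00 to 0.23 that did not pass.

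Of the 6 members that act on lipids, 3 rose and 1 fell at 24 h. SMPD1, the acid sphingomyelinase that makes ceramide, lay at 13.0 and 12.2 FPKM at 0 h, 15.2 and 13.5 FPKM at 6 h and 23.5 and 22.1 FPKM at 24 h. ASAH1, the acid ceramidase that removes it, went the other way, from 14.5 and 15.5 FPKM to 10.8 and 10.4 FPKM and then to 10.7 and 11.2 FPKM. The groups of 0 and 24 h did not overlap for either gene. SMPD1 rose by 0.81 ± 0.08 (adjusted p = 5.16e-05) and ASAH1 fell by 0.42 ± 0.06 (adjusted p = 0.00051) at 24 h against 0 h. PSAP and the cholesterol-binding NPC2 rose by 0.35 and 0.33, and the values of the acid lipase LIPA and of PPT1 were -0.02 and -0.18 and did not pass.

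The 4 proton pump members split. ATP6AP1, an accessory protein of the pump, rose by 0.43 ± 0.08 at 24 h (adjusted p = 0.00256) and ATP6V0D1, with 1 copy of the core, by 0.25 ± 0.09 (adjusted p = 0.0422). ATP6V1A, the catalytic subunit of the cytosolic sector, fell by 0.41 ± 0.09 at 6 h (adjusted p = 0.00706) and by 0.32 ± 0.09 at 24 h (adjusted p = 0.0182). ATP6V1H of the same sector fell by 0.24 ± 0.08 at 6 h (adjusted p = 0.0362) and gave -0.05 ± 0.08 at 24 h (adjusted p = 0.607). At 24 h the listed proteins of the membrane sector were thus higher and the catalytic subunit was lower.

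Of the 6 members with the CLEAR core, MCOLN1, CTSA and ATP6V0D1 had risen in WT cells at 24 h, and CTSD, GAA and LAMP1 had not passed the test, with log2 fold changes of -0.08, 0.00 and 0.11. Of the 3 with the AP-1 pattern, CD63 and TFE3, with TGACTCA, had risen at both times, and PPT1, with TGATTCA, had not. Members with either motif were thus found among those that rose and among those that did not pass, and none of them was called lower. LAMP2, ASAH1 and ATP6V1A, the members lower at 24 h, had no matched window. Whether either motif went with the changes was not tested. The feature of CTSA runs 1672 bases before and 13415 bases past the gene and overlaps NEURL2 and PLTP on the other strand.

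Between 6 and 24 h, the course of the genes could be compared in both genotypes, since each had 2 libraries per time. In WT cells, 14 of 35 members (40.0%) were higher and 1 (2.86%) was lower at 24 h than at 6 h, where 20.5% of all tested features were higher and 26.3% were lower. In ΔCRE cells, 18 members (51.4%) were higher and 1 (2.86%) was lower, where 22.1% of all tested features were higher and 27.5% were lower. The medians of the members were 0.19 in WT and 0.21 in ΔCRE cells, against -0.04 and -0.03 for all features. The 1 lower member was SQSTM1 in both genotypes. Rescaled to TPM, the counts became 25 higher and 1 lower in WT and 23 higher and 1 lower in ΔCRE cells, and with all 12 libraries SMPD1 alone passed in each genotype. The ΔCRE count fell to 11 without ΔCRE 24 h replicate 1 and to 12 without ΔCRE 6 h replicate 2.

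In ΔCRE cells, NPC1 lay at 24.4 and 21.7 FPKM at 6 h and 34.8 and 36.3 FPKM at 24 h, after 13.5 FPKM in the remaining 0 h library. CTSL1 lay at 110 and 110 FPKM at 6 h and 178 and 168 FPKM at 24 h, after 81.6 FPKM. TPP1 went from 9.16 and 7.82 FPKM at 6 h to 14.6 and 17.4 FPKM at 24 h, after 9.01 FPKM. These genes had no overlap between 6 and 24 h, as in WT cells. From 6 to 24 h, NPC1 rose by 0.61 ± 0.07 (adjusted p = 0.000236), CTSL1 by 0.64 ± 0.05 (adjusted p = 2.86e-05) and TPP1 by 0.84 ± 0.10 (adjusted p = 0.00022) on the log2 scale.

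SQSTM1 had 639 and 630 FPKM at 6 h and 472 and 430 FPKM at 24 h in ΔCRE cells, and 174 FPKM in the remaining 0 h library. It fell from 6 to 24 h by 0.49 ± 0.06 in ΔCRE cells (adjusted p = 0.000342) and by 0.43 ± 0.06 in WT cells (adjusted p = 0.000745). SMPD1 went from 13.7 and 13.4 FPKM to 22.2 and 20.3 FPKM in ΔCRE cells, and CD63 from 543 and 532 FPKM to 744 and 701 FPKM. Both were higher at 24 h in each ΔCRE library, by 0.61 ± 0.08 (adjusted p = 0.00031) and 0.43 ± 0.06 (adjusted p = 0.000547).

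The factors and the other membrane genes moved less between these times in ΔCRE cells. TFEB lay at 3.24 and 3.92 FPKM at 6 h and 4.07 and 4.30 FPKM at 24 h, and TFE3 at 12.7 and 12.4 FPKM and then 12.01 and 13.0 FPKM. MCOLN1 lay at 13.7 and 13.4 FPKM and then 17.2 and 15.2 FPKM, and SGSH at 13.4 and 12.6 FPKM and then 11.4 and 11.3 FPKM. None of these 4 passed the test (adjusted p from 0.0685 for SGSH to 0.96 for TFE3, limma). The values of GLA were 23.9 and 21.1 FPKM at 6 h and 24.6 and 26.8 FPKM at 24 h, LAMP1 stayed between 65.4 and 68.7 FPKM, and LAMP2 had 20.1 and 20.3 FPKM at 6 h and 16.4 and 19.6 FPKM at 24 h. CTSD had 235 and 229 FPKM at 6 h and 247 and 218 FPKM at 24 h, which overlapped.

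Deletion of the CRE was compared with WT cells at 6 and 24 h, to ask whether lysosome genes depended on this element. Few members passed the test. At 6 h, CTSB, HEXA and ASAH1 were lower and SQSTM1 was higher in ΔCRE cells, and at 24 h CTSB was lower and PSAP was higher. These 4 of 35 members at 6 h (11.4%) stood against 9.83% of all tested features, and the 2 members at 24 h (5.71%) against 6.33%, shares near the background. Their median log2 fold changes were 0.04 at 6 h and -0.02 at 24 h, and those of all features 0.01 at both.

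**Figure D3:**
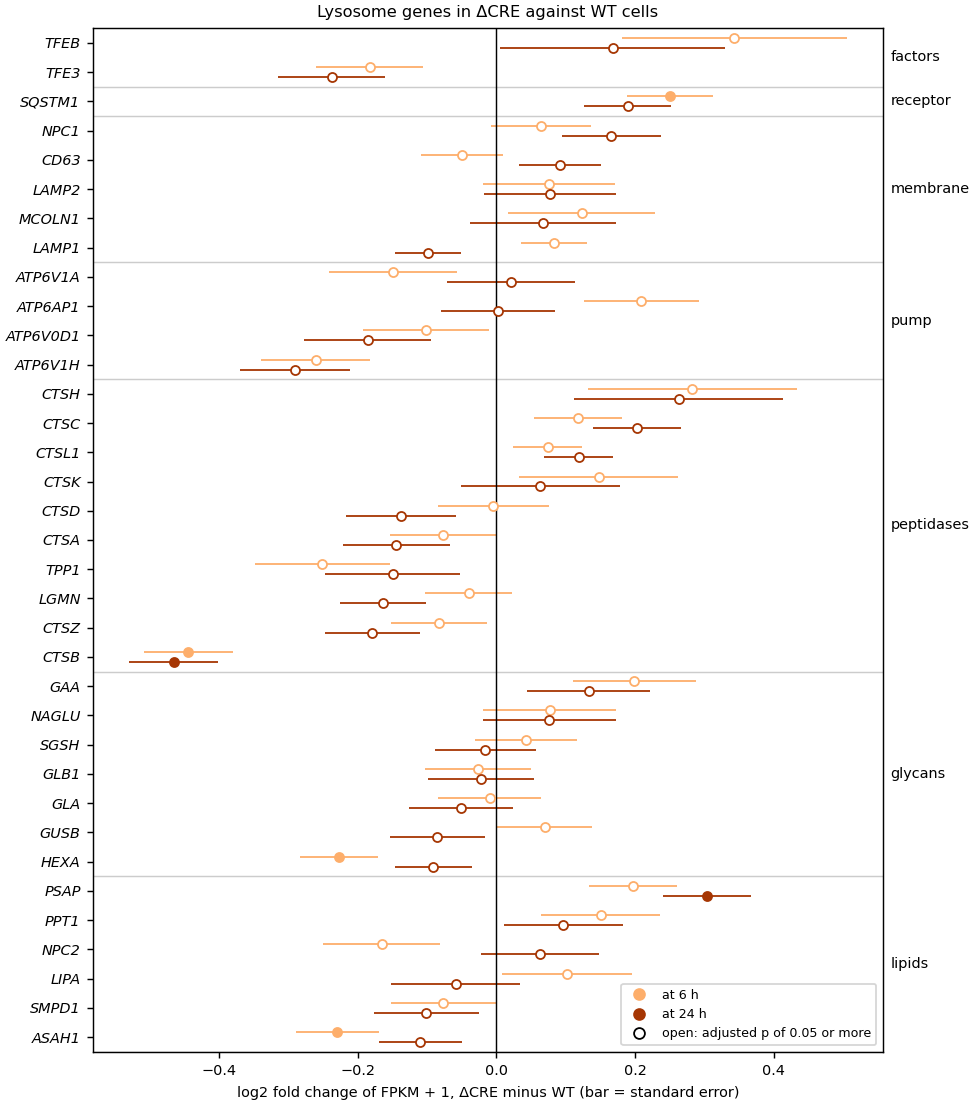
Log2 fold change (horizontal axis) of FPKM + 1 in ΔCRE minus WT cells at 6 h (light) and 24 h (dark) for the 35 tested members in 7 role classes, with the standard error as a bar and filled points for an adjusted p under 0.05. CTSB alone is filled at both times, at -0.44 and -0.47, and most points lie within 0.3 of 0.

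CTSB was called at both times. It lay at 24.4 and 22.9 FPKM in ΔCRE cells against 33.6 and 31.4 FPKM in WT cells at 6 h. At 24 h it lay at 40.2 and 38.3 FPKM against 56.6 and 52.6 FPKM. The genotypes did not overlap at either time, and the remaining ΔCRE library of 0 h, at 23.6 FPKM, was also below both WT libraries of 0 h. On the log2 scale CTSB fell by 0.44 ± 0.06 at 6 h (adjusted p = 0.00437), and the drop of 24 h was -0.47 ± 0.06 (adjusted p = 0.00555). Of 20 alternatives it kept its call in 19 at 6 h and in 16 at 24 h, and the call at 24 h was lost without WT 24 h replicate 1, without ΔCRE 24 h replicate 2, with the compared groups alone and with all 12 libraries.

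The other calls were closer to the threshold. SQSTM1 at 6 h, with 639 and 630 FPKM in ΔCRE against 549 and 519 FPKM in WT cells, was higher by 0.25 ± 0.06 (adjusted p = 0.0407), and at 24 h the value was 0.19 ± 0.06 (adjusted p = 0.124). PSAP at 24 h had 388 and 376 FPKM against 310 and 309 FPKM, a difference of 0.30 ± 0.06 (adjusted p = 0.0289), and at 6 h the value was 0.20 ± 0.06 (adjusted p = 0.0971). HEXA and ASAH1 at 6 h each fell by 0.23 ± 0.06 (adjusted p = 0.0388 and 0.0476). These kept their calls in 8 (SQSTM1), 12 (PSAP), 10 (HEXA) and 7 (ASAH1) of 20 alternatives. The count at 6 h dropped to 1 without any of WT 6 h replicates 1 and 2, WT 24 h replicates 1 and 2 or ΔCRE 6 h replicate 2, and to 2 without any of ΔCRE 6 h replicate 1 or ΔCRE 24 h replicates 1 and 2. The count at 24 h dropped to 0 without WT 24 h replicate 1 or ΔCRE 24 h replicate 2, and to 1 without WT 6 h replicate 1 or 2, WT 24 h replicate 2 or ΔCRE 24 h replicate 1.

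The factors did not pass between the genotypes. TFEB gave 0.34 ± 0.16 at 6 h (adjusted p = 0.244) and 0.17 ± 0.16 at 24 h (adjusted p = 0.615), and TFE3 gave -0.18 ± 0.08 (adjusted p = 0.193) and -0.24 ± 0.08 (adjusted p = 0.119). Neither ΔCRE library of TFE3 reached the lower WT library at either of these times. The change of the genotype difference from 6 to 24 h was called in 0 of the 35 members (limma), where 0.160% of all tested features were called. At an unadjusted p under 0.05 the count was 1, LAMP1, which gave differences of 0.08 (6 h) and -0.10 (24 h).

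At 0 h a single ΔCRE library remained and no test was made. It lay above both WT libraries for 15 of the 37 members, below both for 10 and between them for 12, with a median log2 difference of -0.004 over the 35 tested. The lowest values among these 35 were -0.42 for ATP6V1H, -0.41 for CTSB and -0.39 for ASAH1, and the highest were 0.31 for PSAP and 0.30 for SGSH. Against this library, 25 members were higher and 7 were lower in both ΔCRE libraries of 24 h. The shares of all features that met these rules were not taken, so these counts describe the members alone. In the library set apart, 24 of the 37 members lay above all other 11 libraries, where 35.0% of the tested features did so.

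**Figure D4:**
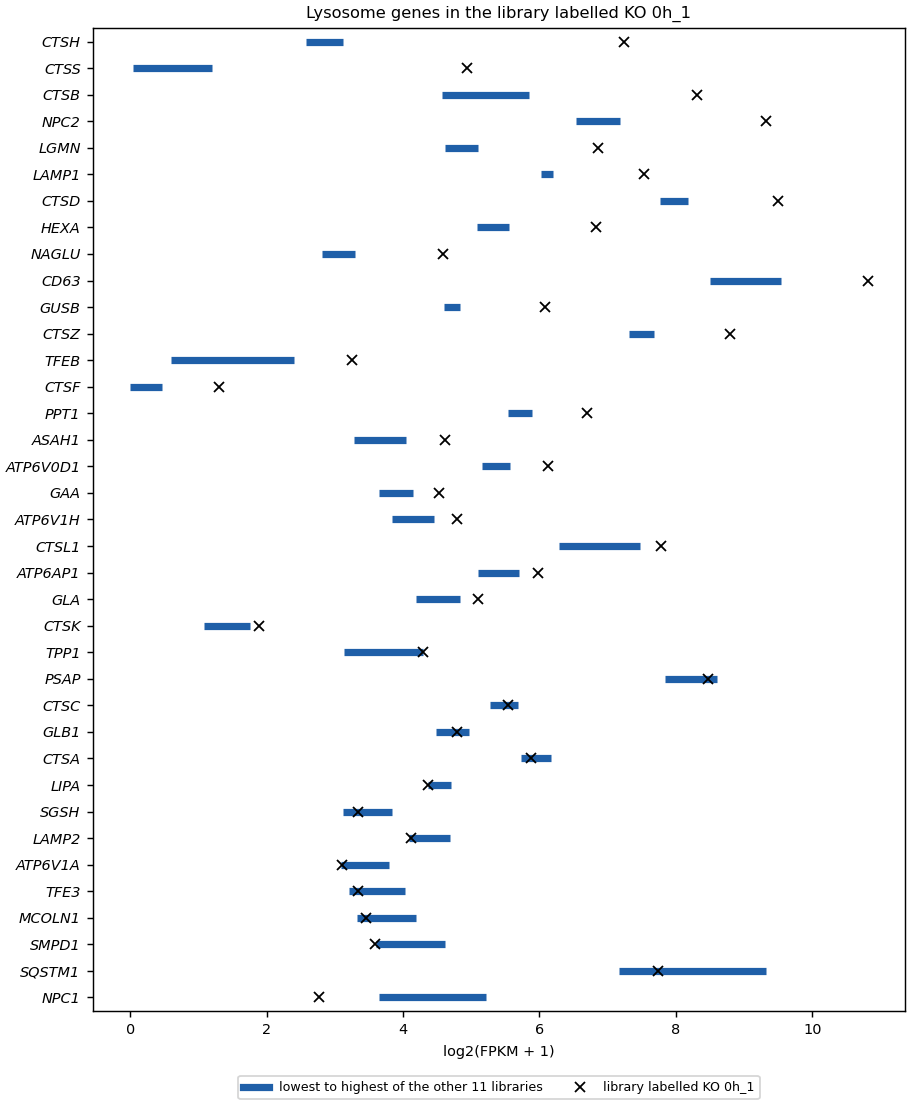
Level on the log2(FPKM + 1) scale of each of the 37 members in ΔCRE 0 h replicate 1 (cross) beside the lowest to highest of the other 11 libraries (bar). CTSH, CTSS and CTSB have crosses far to the right of their bars, and NPC1 has its cross to the left, at 5.81 FPKM.

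The 2 members below the level for testing are the cathepsins CTSS and CTSF. The value of 1 fragment was read from the steps of low FPKM values. For CTSS, 6 of 12 values were whole within 0.1 of a fragment, so no fragment numbers are given for it. CTSF came to 8, 6, 4, 4, 13 and 6 fragments in the 6 WT libraries in order of time and replicate, 41 in all. In the 5 ΔCRE libraries it came to 0, 1, 0, 1 and 1 fragments, 3 in all, at relative depths between 0.763 and 1.25 over the 11 libraries. All 12 CTSF values were whole within 0.1, no WT library had fewer fragments than any ΔCRE library, and fitted without the filter the difference was -0.32 ± 0.06 at 24 h (adjusted p = 0.0484) and -0.13 ± 0.06 at 6 h (adjusted p = 0.349).

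CTSS, the cathepsin of antigen presentation, lay at 0.0436 and 0.0304 FPKM in WT cells at 0 h, 0.434 and 0.376 FPKM at 6 h and 1.30 and 1.23 FPKM at 24 h. In ΔCRE cells it lay at 0.130 FPKM in the remaining 0 h library, 0.259 and 0.142 FPKM at 6 h and 0.534 and 0.499 FPKM at 24 h. It climbed with time in WT cells and from 6 to 24 h in ΔCRE cells, and at 24 h neither ΔCRE library reached the lower WT library. In ΔCRE cells, 1 of the 6 h libraries (0.142 FPKM) was close to the remaining 0 h library. Fitted without the filter, CTSS rose by 1.13 ± 0.05 in WT cells at 24 h (adjusted p = 1.49e-05), and ΔCRE cells fell by 0.58 ± 0.05 against WT cells at 24 h (adjusted p = 0.00305). The summed level of 6 macrophage and leukocyte genes was 1.27 to 2.32 FPKM in WT cells at 0 h, 1.52 to 2.19 FPKM in WT cells at 24 h and 2.32 to 2.59 FPKM in ΔCRE cells at 24 h. Of these 6 genes, TYROBP was at 0 in all 11 libraries and PTPRC and CD163 reached at most 0.0281 FPKM, while CD14 reached 0.584 FPKM, FCER1G 1.12 FPKM and CSF1R 1.67 FPKM. Their part in the level of CTSS was not tested.

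A wider list of 118 genes of the lysosome and of autophagy, of which 110 were tested, was examined beside the members. After 6 h of treatment, 29 of these (26.4%) had risen and 18 (16.4%) had fallen in WT cells, near the 23.3% and 21.1% of all tested features. By 24 h, 55 (50.0%) stood above and 5 (4.55%) below their levels of 0 h, where all features gave 26.5% and 28.2%. From 6 to 24 h, 46 (41.8%) rose and 3 (2.73%) fell in WT cells, against 20.5% and 26.3%, and 47 (42.7%) rose and 5 (4.55%) fell in ΔCRE cells, against 22.1% and 27.5%. The genotypes differed at 6 h in 10 genes (9.09%; 2 higher, 8 lower in ΔCRE cells) and at 24 h in 8 genes (7.27%; 3 higher, 5 lower), near the background of 9.83% and 6.33%.

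Of 17 autophagy genes, 14 (82.4%) were higher and 0 lower in WT cells at 24 h, to be read against the same 26.5% and 28.2% as the lists that follow. OPTN, another receptor of ubiquitinated cargo, lay at 15.9 and 15.9 FPKM at 0 h, 43.9 and 45.1 FPKM at 6 h and 39.8 and 41.8 FPKM at 24 h. Like SQSTM1, OPTN had reached its highest WT level at 6 h. GABARAPL1 and WIPI1, which act in forming autophagosomes, rose by 1.20 ± 0.06 (adjusted p = 1.6e-06) and 1.08 ± 0.08 (adjusted p = 1.75e-05) at 24 h. Among other hydrolases, 10 of 26 (38.5%) were higher and 2 (7.69%) lower, led by the sialidase NEU1, which went from 16.0 and 14.4 FPKM to 43.0 and 40.8 FPKM at 24 h. Among membrane proteins, 10 of 19 (52.6%) were higher and 0 lower, and CD68, a LAMP relative, went from 33.8 and 26.1 FPKM to 91.7 and 86.7 FPKM.

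Further subunits of the proton pump were higher in 8 of 14 cases (57.1%) and lower in 0 at 24 h. TCIRG1 and ATP6V0B of the membrane sector rose by 0.82 ± 0.07 (adjusted p = 3.76e-05) and 0.73 ± 0.08 (adjusted p = 0.000149). ATP6V0A1 rose by 1.59 ± 0.35 (adjusted p = 0.00481), with replicates of 26.0 and 14.0 FPKM at 24 h that differed widely. Genes of sorting to the lysosome were higher in 4 of 15 cases (26.7%), a share at the background, and lower in 1 (6.67%). The list of TFEB relatives and mTORC1 regulators had 5 of 14 (35.7%) higher and 2 (14.3%) lower. In it, FLCN, a regulator of TFEB and TFE3, rose by 0.73 ± 0.06 (adjusted p = 3.14e-05), while MITF, a relative of both, fell by 0.84 ± 0.11 (adjusted p = 3e-04).

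Inhibitors of cathepsins held the largest genotype differences of the wider list, with 3 of 5 lower in ΔCRE cells at both times. Of all tested features, 9.83% at 6 h and 6.33% at 24 h were called in either direction. CST1, a secreted cystatin that blocks cysteine cathepsins, lay at 5.24 and 7.03 FPKM at 0 h, 37.9 and 32.1 FPKM at 6 h and 69.0 and 63.1 FPKM at 24 h in WT cells. In ΔCRE cells it lay at 0.509 FPKM in the remaining 0 h library, 2.98 and 3.37 FPKM at 6 h and 7.14 and 7.68 FPKM at 24 h. It rose with time in both genotypes at levels that did not overlap between them at 6 or 24 h. The log2 difference of CST1 was -3.10 ± 0.13 at 6 h (adjusted p = 1.2e-05), followed by -2.99 ± 0.13 at 24 h (adjusted p = 1.3e-05). Its relatives CST4 and CST2 were lower by -1.43 and -1.32 at 6 h and by -1.49 and -1.05 at 24 h. The sequences of these 3 cystatins are alike, and how fragments that fit several of them were assigned was not tested.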

How the data were processed

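RNA-sequencing libraries of WT and ΔCRE MDA-MB-231 cells (poly(A) RNA, stranded kit) were grouped by the genotype, time and replicate in their labels. The authors mapped reads to hg19 with TopHat, estimated expression with Cufflinks and deposited FPKM values. Annotation, strand use and scaling between libraries are not given in the sources used here. FPKM keep no fragment totals, but relative depth was read from single-fragment steps. Of the 12 columns, 2 have a digit in place of a letter and were matched to the only fitting labels.

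From the deposited FPKM, log2(FPKM + 1) was fitted with limma 3.58.1 (R 4.3.3; lmFit, eBayes with trend) on 11 libraries in 6 groups and 11256 features with a mean of at least 1 FPKM. P-values were adjusted over all features by the Benjamini-Hochberg method, and the script was tested on simulated data. P-values measure the spread between labelled replicates. Errors are standard errors.

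The members and lists were chosen with earlier results of these data known. Values per library are given for the 12 members with the largest called change, 7 fixed members (LAMP1, LAMP2, CTSD, TFEB, TFE3, MCOLN1, SQSTM1), and PSAP, CTSS, CTSF and ASAH1, chosen after their values were seen. At most 3 genes are named from each wider list, those with the largest called changes. Alternatives were no filter, a mean of at least 5 FPKM, a pseudocount of 0.1, quantile normalization, TPM, the compared groups alone, a replicate block, eBayes without trend, all 12 libraries and each library left out. Promoters came from RefSeq. Python 3.11.15 was used for the rest.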

Additional observations from a re-analysis of the deposited data

Results flagged for a closer look

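For 6 members, ΔCRE 0 h replicate 1, a library outside all comparisons, held 3 times or more the highest level of the other 11 libraries. CTSS had 29.7 FPKM there against at most 1.30 FPKM, and CTSH, an aminopeptidase of the cathepsin family, had 149.9 FPKM against at most 7.74 FPKM. CTSB had 317.7 FPKM (highest elsewhere 56.6 FPKM), NPC2 had 642.4 FPKM (144 FPKM), CTSF had 1.46 FPKM (0.381 FPKM) and LGMN had 115.1 FPKM (33.3 FPKM). In all, 24 of the 37 members lay above all other 11 libraries in it, 2 (NPC1 and SMPD1) lay below and 11 lay within, where 35.0% of the tested features lay above and 36.1% below. Its FPKM values summed to 1423335 over all features, against 566255 to 651080 in the others, and the gut, macrophage and leukocyte genes given above moved with these members. Their part in these levels was not tested.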

How the results depend on the processing

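The counts of called members kept within 1.5 times of those given, except as follows. With all 12 libraries, the counts were 3 (WT 6 h against 0 h), 6 (WT 24 h against 0 h), 1 (WT 24 h against 6 h), 1 (ΔCRE 24 h against 6 h), 0 (ΔCRE against WT at 6 h) and 0 (at 24 h). The WT count for 24 h against 6 h was 24 after quantile normalization and 26 after rescaling to TPM. ΔCRE against WT at 6 h gave 2 without a filter, 1 with the compared groups alone and 1 with eBayes without trend. At 24 h it gave 4 without a filter and 0 with the compared groups alone. Without a filter, the low members CTSS and CTSF entered the counts as well, and both were among these 4. Leaving out 1 library in turn gave 10 to 14, 19 to 25 and 12 to 19 for the 3 WT comparisons in the order above, 11 to 20 for ΔCRE 24 h against 6 h, 1 to 4 and 0 to 2 for the genotypes at 6 and 24 h, and 0 to 0 for the change of their difference. A group left with 1 library was assumed to vary like the others. Quantile normalization turned PSAP at 6 h against 0 h in WT cells to -0.13 and CTSD at 24 h against 6 h in ΔCRE cells to 0.16. The cause was not tested. Over all features, rescaling to TPM moved the share of higher calls from 52.5% to 35.0% (WT 6 h against 0 h), 43.7% to 64.3% (WT 24 h against 6 h), 44.6% to 60.7% (ΔCRE 24 h against 6 h) and 37.2% to 24.7% (ΔCRE against WT at 24 h).

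A block for the replicate number called 18, 27, 21 and 21 members over time and 5, 3 and 0 between the genotypes. Deviations of libraries with the same number correlated from -0.068 to 0.202, so the numbers were not taken as a pairing. Over all features, the block raised the calls between the genotypes (1107 to 1805 at 6 h, 712 to 1407 at 24 h), and the compared groups alone lowered them to 364 and 132.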
